A study of Mus musculus with 6 samples.

Results

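Immunoproteasome and class I peptide-loading genes were compared between the lungs of leptin-treated and saline-treated ob/ob mice. The set has 9 members, Psmb8, Psmb9, Psmb10, Psme1, Psme2, Tap1, Tap2, Tapbp and B2m, chosen by gene symbol with earlier results of these data known. They were found as the probe sets to which the array's annotation gives 1 of these symbols and no other, among 12393 genes named in that way. In this manner 8 members were measured by 13 probe sets. The only probe set for Psme2, the beta subunit of the PA28 activator, is shared in the annotation with Psme2b, so Psme2 has no value here.

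All animals were female B6.V-Lepob/J mice of about 1 month, which carry the obese mutation of the leptin gene and make no functional leptin, the adipocyte hormone that restrains feeding. The leptin group had leptin treatment and the saline group saline treatment, with 3 Affymetrix Mouse 430A arrays in each and 1 animal and 1 lung sample per array. Lean controls were not analysed here, so all differences are between treated and untreated leptin deficiency. No label gives the dose, the route or the duration of the treatment.

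The proteasome is a barrel of protein subunits that cuts proteins into peptides. In leukocytes, and in other cells exposed to interferon gamma, its catalytic subunits Psmb5, Psmb6 and Psmb7 are replaced in newly built particles by Psmb8, Psmb9 and Psmb10, which favours peptides that fit MHC class I molecules. The PA28 cap, made of Psme1 and Psme2, speeds peptide release. The TAP transporter, a pair of Tap1 and Tap2, carries the peptides into the endoplasmic reticulum, where Tapbp (tapasin) holds the transporter next to an empty class I molecule, a heavy chain bound to B2m (beta-2 microglobulin). In the lung such peptides are shown to CD8 T cells by epithelium, endothelium and resident leukocytes alike.

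Psmb9, Tap1, Psmb8 and Tap2 lie next to each other in this order in the class II region of the mouse MHC on chromosome 17 in RefSeq's gene table (GRCm38.p6). Psmb9 and Tap1 point away from each other and share the stretch between their start sites. This stretch is shown together with the 250 bases upstream of Psmb8 and B2m, since Psmb9, Tap1 and B2m are the genes whose groups did not overlap, and Psmb8 is the neighbour of the first pair. Sequences are RefSeq's, build GRCm38.p6, plus strand, 5′ to 3′. Capitals mark the interferon-stimulated response element core (GAAA, any 2 bases, then GAAA), the gamma-activated site TTCNNNGAA, bound by STAT factors, or the GC box GGGCGG, bound by Sp1, on either strand. The regions are chr17:34187331-34187555 for Psmb9 and Tap1, chr17:34197945-34198194 for Psmb8 and chr2:122147437-122147686 for B2m.
Psmb9 and Tap1: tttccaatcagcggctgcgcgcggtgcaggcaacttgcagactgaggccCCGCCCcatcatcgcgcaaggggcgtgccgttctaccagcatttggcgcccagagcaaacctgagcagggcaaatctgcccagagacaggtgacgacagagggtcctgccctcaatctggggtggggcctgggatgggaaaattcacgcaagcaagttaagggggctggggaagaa
Psmb8: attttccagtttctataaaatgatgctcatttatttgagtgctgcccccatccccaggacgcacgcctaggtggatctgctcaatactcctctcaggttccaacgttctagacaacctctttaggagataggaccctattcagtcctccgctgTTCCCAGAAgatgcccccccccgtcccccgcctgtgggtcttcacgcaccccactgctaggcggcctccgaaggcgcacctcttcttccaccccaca
B2m: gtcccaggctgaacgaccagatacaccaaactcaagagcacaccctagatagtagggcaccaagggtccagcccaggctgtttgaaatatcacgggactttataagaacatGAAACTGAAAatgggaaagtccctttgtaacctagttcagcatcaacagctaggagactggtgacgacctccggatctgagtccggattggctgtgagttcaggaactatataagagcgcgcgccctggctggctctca

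The B2m window held 1 interferon-stimulated response element core, a motif found in 2.98% of 32851 RefSeq promoter windows of 250 bases. The Psmb8 window held 1 gamma-activated site, found in 7.02% of them. The stretch between Psmb9 and Tap1, 225 bases long, held 1 GC box, a motif in 31.9% of windows of that length, and neither of the other motifs in these letters. Of the 8 members with a window in the table, all but Tap2, the response element core was found only for B2m, the gamma-activated site only for Psmb8, and the GC box for 5. A GC box is found in 32.7% of windows of 250 bases. Psmb9 and Tap1 are both among the 5, although the GC box of their shared stretch is the same one. These are matches of letters and not sites shown to be bound.

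The array of saline replicate 1 stood apart before any gene was considered. Its log2 values correlated at 0.438 to 0.447 with the other arrays, which correlated with one another at 0.973 to 0.978 (Pearson's r over all probe sets without controls, which do not vary independently). The 10 member probe sets bright enough to be tested ranked at a median percentile of 83.8 to 87.1 on the other 5 arrays and of 35.7 on saline replicate 1. Of these 10, 9 read lowest of all arrays there. The arrays carried the markers of lung tissue: 13 epithelial genes, among them the surfactant gene Sftpc and the type I cell gene Ager, ranked at a median percentile of 99.2 to 99.7 on the 5 arrays and of 96.4 on saline replicate 1. On that array, however, some markers ranked far lower than on the others, with Ager at 64.8, the epithelial adhesion gene Epcam at 9.82 and the endothelial gene Vwf at 7.86. Epcam and Vwf ranked lowest of their lists there. Other markers did not fall: the epithelial genes Cdh1 and Foxj1 ranked higher there than on any other array, at 97.2 and 86.9. The endothelial genes Cdh5 and Kdr stayed at 92.5 and 93.4. The members are therefore given without this array first and then with it, and the other lists without it, with their counts over all 6 arrays where these differ most. The p-values measure the spread between these arrays.

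Without saline replicate 1, leptin-treated lungs had higher mean log2 values for 8 of the 8 measured members, and the differences were small for most of them. Psmb9 was 1.70-fold higher, B2m 1.35-fold higher by its brighter probe set, and Psmb8 and Tap1 each 1.18-fold higher, whereas Psmb10, Psme1, Tapbp and Tap2 were 1.02-fold to 1.09-fold higher. The median log2 difference over the 8 genes, each by its brightest probe set, was 0.19, beside -0.01 over all 9365 genes tested, of which 48.3% were above 0. No member passed the limma threshold of an adjusted p of 0.05, which 0.0442% of 15838 probe sets passed. At an unadjusted p under 0.05, 2 members were higher and 0 lower, where 2.26% and 2.02% of all genes were. The 2 groups did not overlap for 3 of the 8 genes, all higher with leptin, where 9.50% of all genes were higher without overlap. In whole lung, more cells of a type and more RNA per cell cannot be told apart.

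Psmb9 (Entrez Gene 16912), the immunoproteasome subunit that takes the place of Psmb6 and lacks its caspase-like activity, had the largest difference of the members. Its intensity was 765.7, 625.4 and 531.5 in leptin-treated lungs and 355.3 and 371.9 in saline replicates 2 and 3. The lowest leptin array thus stood well above both saline arrays, which were close to each other. The means were 641 ± 118 (SD, n = 3) and 364 ± 11.7 (SD, n = 2), a log2 difference of 0.77 ± 0.18 (SE). The limma p was 0.00122 before and 0.410 after Benjamini-Hochberg adjustment over all probe sets. Under the criterion stated by the series (p under 0.05, with the means and 6 of the 9 pairs of arrays, here 4 of 6, apart by 1.5-fold or more), Psmb9 alone of the members qualified, with 4 of 6 pairs. Of all probe sets tested, 0.259% met that criterion as higher.

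**Figure D1:**
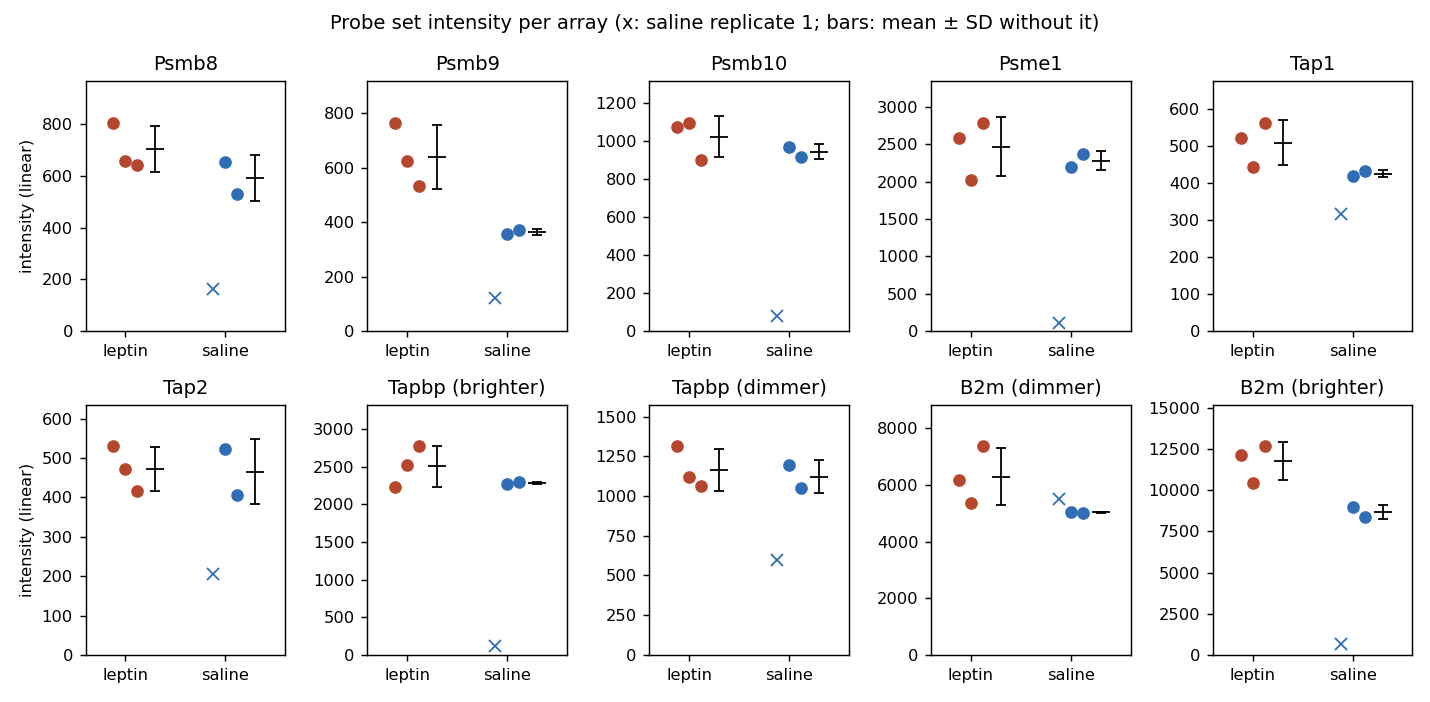
Probe set intensity (linear scale from 0) of the 10 tested member probe sets on each array, with leptin arrays in red and saline arrays in blue. Crosses mark saline replicate 1, and bars give the mean ± SD of the 3 leptin arrays and of saline replicates 2 and 3. Psmb9, Tap1 and both B2m probe sets show no overlap between leptin and those saline arrays, and saline replicate 1 lies lowest in all panels but the dimmer B2m probe set.

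Psmb8 (16913), which replaces Psmb5 and carries chymotrypsin-like activity, read 806.2, 659.8 and 644.6 with leptin and 654.7 and 529.5 with saline. Leptin replicate 1 was highest and saline replicate 3 lowest, and the groups overlapped, since leptin replicate 3 lay below saline replicate 2. The log2 difference was 0.24 ± 0.16 (SE, limma adjusted p = 1.00), and it was 0.09 without saline replicate 3. Psmb10 (19171), which replaces Psmb7 and carries trypsin-like activity, read 1073.3, 1097.0 and 901.8 with leptin against 971.3 and 916.5, so that leptin replicate 3 lay below both saline arrays. Its log2 difference of 0.11 ± 0.14 was smaller than its standard error (adjusted p = 1.00).

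The constitutive subunits that these 3 replace were not higher. Psmb5 read 1915.3, 1929.0 and 1776.3 with leptin and 1957.8 and 1959.4 with saline, a log2 difference of -0.06 ± 0.12. Psmb6 read 1559.3, 1656.8 and 1543.3 against 1889.0 and 1662.6, at -0.16 ± 0.13. Psmb7, at -0.01 ± 0.13, overlapped between groups and turned to 0.07 and 0.10 without leptin replicate 3 or saline replicate 2. All 3 had a limma adjusted p of 1.00.

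The change of each inducible subunit relative to its constitutive counterpart was taken as the difference of their log2 values within an array, set against the mean of saline replicates 2 and 3. For Psmb9 over Psmb6 it was 1.21, 0.84 and 0.72 in the leptin group and -0.12 and 0.12 in the saline group. The mean difference was 0.93, and an exact two-sided permutation test over the 5 arrays gave p = 0.2, the smallest that this design allows. For Psmb8 over Psmb5 the leptin arrays were at 0.47, 0.18 and 0.27 and the saline arrays at 0.15 and -0.15, a mean difference of 0.31. For Psmb10 over Psmb7 they were at 0.17, 0.08 and 0.11 against -0.07 and 0.07, a mean difference of 0.12. Neither pair overlapped between groups, each had the same exact permutation p of 0.2, and the values adjusted over the 3 pairs were 0.2 as well. With saline replicate 1 included the difference was 0.83 for Psmb9 over Psmb6 (exact permutation p = 0.1, the smallest possible, and 0.3 adjusted), 0.23 for Psmb8 over Psmb5 (exact permutation p = 0.2) and -0.56 for Psmb10 over Psmb7 (exact permutation p = 1.0).

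Psme1 (19186), the alpha subunit of the PA28 activator, read 2588.3, 2025.8 and 2785.8 with leptin and 2192.0 and 2365.5 with saline. Both the lowest and the highest of these values came from leptin arrays. The log2 difference was 0.10 ± 0.15 (limma adjusted p = 1.00). The other activators had lower values with leptin: Psme3, the nuclear PA28 gamma subunit, at 316 ± 27.2 (SD, n = 3) against 399 ± 15.6 (SD, n = 2), and Psme4, the PA200 activator, at 1066 ± 49.7 against 1218 ± 0.636. Both were lower without overlap, as 10.4% of all genes were. Neither passed the threshold, with log2 differences of -0.32 ± 0.16 and -0.19 ± 0.13 and limma adjusted p of 1.00.

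Tap1 (21354), one chain of the peptide transporter, read 520.4, 442.4 and 561.9 with leptin and 417.8 and 432.1 with saline by its only probe set above the filter on dim signal. The groups did not overlap, although leptin replicate 2 lay only just above saline replicate 3. The log2 difference was 0.24 ± 0.16 (limma adjusted p = 1.00), beside 0.77 ± 0.18 for Psmb9, which shares the stretch of sequence shown above. The difference between these 2 values was not tested. The other 3 Tap1 probe sets were dim and were left out of the test. One read 54.4, 43.2 and 39.4 against 25.9 and 5.3, higher with leptin without overlap. Another read 26.1, 10.7 and 29.9 against 33.2 and 31.9, lower without overlap, and the remaining one stayed between 6.0 and 15.5 on the 5 arrays. The dim Tap1 probe sets therefore had no common direction.

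Tap2 (21355), the other chain of the transporter, read 529.4, 471.4 and 416.2 with leptin and 523.1 and 407.3 with saline. The arrays of both groups covered nearly the same range, and the log2 difference was 0.02 ± 0.17 (limma adjusted p = 1.00). Its sign turned without leptin replicate 1 (-0.06) or saline replicate 3 (-0.15). Tapbp (21356), which bridges the transporter and the class I heavy chain, read 2227.9, 2530.2 and 2770.5 against 2271.6 and 2291.2 by its brighter probe set. Leptin replicate 1 lay below both saline arrays there and the other 2 leptin arrays above them, with a log2 difference of 0.13 ± 0.13. The dimmer Tapbp probe set gave 0.05 ± 0.15 with overlapping groups, and -0.04 or -0.05 without leptin replicate 1 or saline replicate 3. Both had a limma adjusted p of 1.00.

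B2m (12010), the light chain of every class I molecule, was measured by a pair of bright probe sets that gave the same direction. The brighter one read 12152.3, 10461.2 and 12650.2 with leptin and 8960.8 and 8352.2 with saline. All 3 leptin arrays lay above both saline arrays, at 11755 ± 1147 (SD, n = 3) against 8657 ± 430 (SD, n = 2). The log2 difference was 0.44 ± 0.11 (SE), with a limma p of 0.00307 before and 0.661 after adjustment. The dimmer one read 6164.1, 5357.2 and 7365.4 against 5050.0 and 5015.9, again without overlap, at 0.31 ± 0.14 (unadjusted p = 0.0475, adjusted p = 1.00). In both B2m probe sets leptin replicate 2 was the lowest leptin array and leptin replicate 3 the highest.

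**Figure D2:**
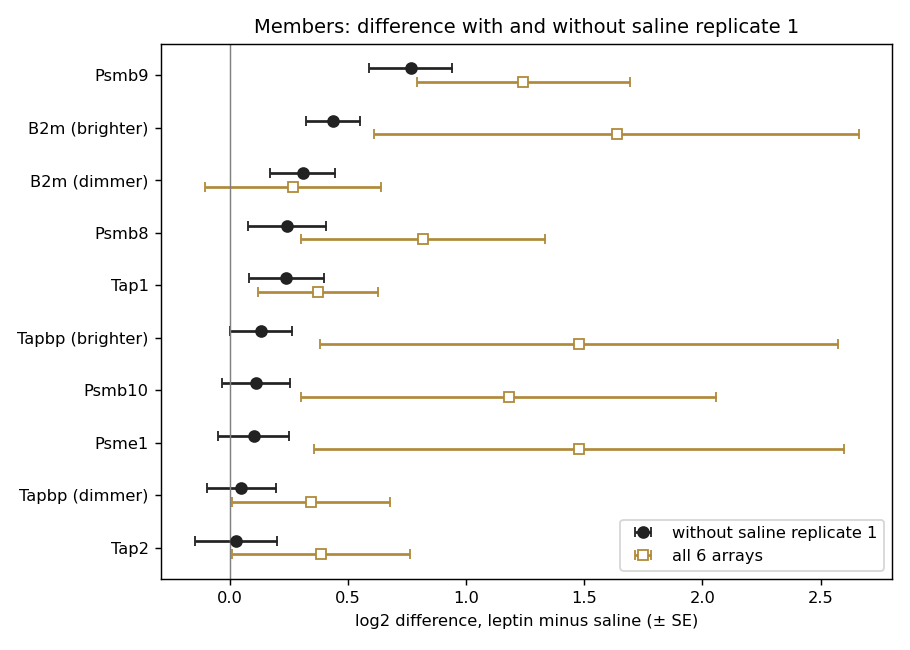
Log2 difference (leptin minus saline) with its standard error for each tested member probe set, without saline replicate 1 (filled circles) and with all 6 arrays (open squares). Psmb9 lies highest without that array, at 0.77, and most members move to the right when it is included, with standard errors of up to 1.12.

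The class I heavy chains, the partners of B2m, had the same sign as the members. Of 16 listed genes, 7 were named on the array and 4 passed the filter. All 4 were higher, by 0.12 to 0.23 on the log2 scale, where 48.3% of all genes were above 0. H2-D1 was at 11298 ± 1280 (SD, n = 3) against 9570 ± 189 (SD, n = 2) and H2-K1 at 13033 ± 1092 against 11411 ± 434. Both were higher without overlap, as 9.50% of all genes were, with log2 differences of 0.23 ± 0.12 and 0.19 ± 0.11 (limma adjusted p = 1.00 for both). The probe sets of these near-identical genes can share targets, so the 2 are not separate measurements. H2-M3 and Cd1d1, a class I molecule that presents lipids, were at 0.14 and 0.12 with overlapping groups.

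The general machinery of the proteasome had mostly small differences of the other sign. Of 34 genes listed for the 20S core and the 19S regulatory particle, 23 were lower and 11 higher with leptin, with a median log2 difference of -0.04. The list includes assembly chaperones of the regulatory particle such as Psmd5. With all 6 arrays the sign was the reverse for most, 29 of the 34 being higher. Without saline replicate 1 and without overlap, 9 were lower and 1 higher, where 10.4% of all genes were lower and 9.50% higher, and none passed the limma threshold. At an unadjusted p under 0.05 there were 2, both lower: Psma5, an outer ring subunit, at -0.47 ± 0.17, and Psmd4, a ubiquitin receptor of the regulatory particle, at -0.35 ± 0.12. Next were Psmb1, a core subunit, at -0.30 ± 0.14, and Psmd5, an assembly chaperone of the regulatory particle, at -0.24 ± 0.15. Of the 8 other activators and assembly factors, 5 were higher and 3 lower. The other loading and trimming factors were split, 4 higher and 6 lower of 10, whereas 8 were higher and 2 lower with all 6 arrays. Without saline replicate 1, Pdia3, the oxidoreductase of the loading complex, was at 0.23 ± 0.12 without overlap. Sec61a1, a translocon subunit, was at -0.25 ± 0.20. Pdia3, Sec61a1, Psma5, Psmd4, Psmb1 and Psmd5 all had a limma adjusted p of 1.00.

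Genes upstream of the set and other targets of interferon gamma were examined next. Of 18 tested regulators, 13 were higher and 5 lower, with a median of 0.06, and 1, Irf9, was at an unadjusted limma p under 0.05 (0.0280). With the replicate number as a block, in which leptin replicate 1 has no saline partner, this limma p became 0.0617. Irf9, the DNA-binding subunit of the type I interferon complex, read 460.4, 371.2 and 471.1 with leptin against 329.8 and 301.1, a log2 difference of 0.43 ± 0.17. Rela, an NF-kappaB subunit, was at -0.30 ± 0.15 (limma adjusted p = 1.00 for both). All 8 tested interferon gamma response genes were higher, with a median of 0.32, 5 of them without overlap and 3 at an unadjusted p under 0.05, where 48.3%, 9.50% and 2.26% of all genes were. With all 6 arrays, 4 of the 8 were higher and 4 lower. Gbp2, an interferon-induced GTPase, was at 846 ± 57.2 (SD, n = 3) against 550 ± 60.0 (SD, n = 2), a log2 difference of 0.60 ± 0.15 (limma adjusted p = 0.526). Cd274, the checkpoint ligand PD-L1, was at 154 ± 17.1 against 71.3 ± 30.1, a difference of 0.95 ± 0.28 (adjusted p = 0.851). None of the 82 tested genes of these 8 lists passed the limma threshold.

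**Figure D3:**
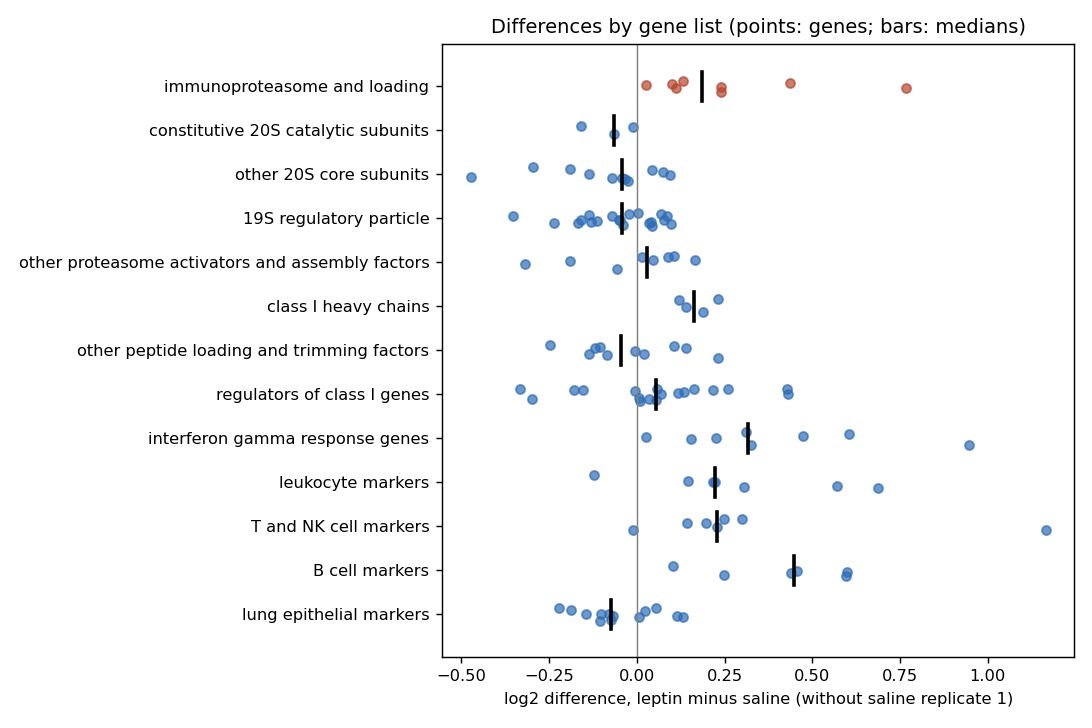
Log2 difference (leptin minus saline, without saline replicate 1) of each tested gene by its brightest probe set, grouped by list, with the median of each list as a bar. The members (top row, red, median 0.19) and the interferon gamma response genes (median 0.32) lie to the right of 0, whereas the constitutive proteasome lists have medians between -0.06 and -0.04.

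Markers of the cell types in the lung were set beside the members, without saline replicate 1. Of 7 tested general leukocyte markers, 6 were higher with leptin, with a median of 0.22, and their summed intensity was 6604 to 6848 with leptin and 5320 to 6114 in saline replicates 2 and 3. Of 6 B cell markers all 6 were higher (median 0.45), with sums of 1527 to 2094 against 1306 to 1423. Of 7 tested T and NK cell markers, 6 were higher (median 0.23), with sums of 960 to 1234 against 761 to 968. The 5 tested macrophage and dendritic cell markers were all higher (median 0.12), with sums of 4701 to 5429 against 4524 to 4884, and of 5 neutrophil markers 4 were higher (median 0.25), with sums of 2794 to 5494 against 2630 to 4469. The sums of the T and NK cell, macrophage and neutrophil markers overlapped between groups. None of the genes in these 5 lists passed the limma threshold, and with all 6 arrays 2 of 8 T and NK cell markers and 3 of 6 macrophage markers were higher. Of 9 mesenchymal markers, 8 were higher (median 0.25), with sums of 30339 to 31559 against 23388 to 26135. Of 9 endothelial markers 7 were higher (median 0.07), and of 13 epithelial markers 8 were lower (median -0.07), whereas 10 were higher with all 6 arrays. All 4 red cell markers were lower (median -0.97), with sums of 4012 to 5418 against 9572 to 11936. Of these Alas2, an enzyme of heme synthesis, and Bpgm, a red cell enzyme, fell by 1.20 and 1.16 on the log2 scale (limma adjusted p = 0.0496 for both, 0.0941 with the replicate block and 0.303 without the filter on dim signal). With all 6 arrays their log2 differences were 1.12 and -0.04. Without saline replicate 1, 6 mesenchymal, 4 B cell, 4 endothelial, 2 leukocyte and 2 T and NK cell markers were higher without overlap. So were 1 neutrophil, 1 epithelial and 0 macrophage and dendritic cell markers, beside 9.50% of all genes. Lower without overlap were 3 epithelial and 3 red cell markers, beside 10.4% of all genes. No value in the table was 0. The part of these markers in the members' differences was not tested.

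The members differed among themselves in how they followed the 5 arrays. Averaged over the 8 genes, the log2 values centred on each gene's mean were 0.19, 0.03 and 0.09 on leptin replicates 1, 2 and 3 and -0.12 and -0.19 on saline replicates 2 and 3. Psmb9 had its highest centred value on leptin replicate 1 (0.57) and its lowest on saline replicate 2 (-0.49). B2m, Tap1, Psme1 and Tapbp were highest on leptin replicate 3, at 0.29, 0.24, 0.23 and 0.20, and of these Psme1 was lowest on leptin replicate 2, at -0.23. Psmb8 and Tap2 had their lowest values on saline replicate 3, at -0.29 and -0.19. On leptin replicate 2 the mean of the set was thus near that of all arrays, with only Psmb9, Psmb10 and Tapbp above 0.05.

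**Figure D4:**
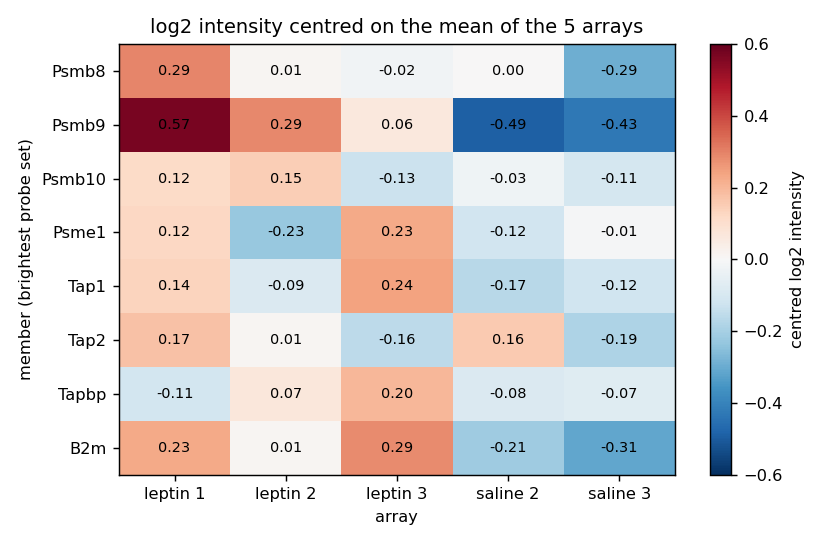
Log2 intensity of each member's brightest probe set, centred on its mean over the 5 arrays other than saline replicate 1 (rows: members, columns: arrays, colour and figures: centred log2 value). Psmb9 spans the widest range, from -0.49 to 0.57, and all members but Tap2 and Psmb8 are below 0 on both saline arrays.

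Among 9357 other genes, the 5 whose centred values were closest to the members' mean were Wdr82, a subunit of histone methyltransferase complexes, Cdh13, a GPI-anchored cadherin, Serpinf1, the secreted factor PEDF, Nfya, a subunit of the CCAAT-binding factor NF-Y, and Ackr3, a scavenging chemokine receptor. Their root mean square differences from it were 0.0151, 0.0216, 0.0285, 0.0297 and 0.0307 on the log2 scale over 5 arrays. A flat profile was at 0.138, and of the members themselves Psmb9 was at 0.286, Tap2 at 0.165, Psme1 at 0.157 and Tapbp at 0.156, each farther from the mean than the flat profile. The log2 differences of these 5 genes were 0.24 to 0.28, with limma adjusted p of 1.00.

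With all 6 arrays, the comparison as the series designed it, the members' values rested on saline replicate 1. The median log2 difference over the 8 genes was 1.21, against 0.19 without that array, beside 0.02 over all 9419 genes tested, of which 51.0% were above 0. None of the members passed the limma threshold, which 0.00% of all probe sets passed. One member, Psmb9, was at an unadjusted p under 0.05 as higher, where 0.180% of genes were, and 0 of the members met the criterion of the series, which 0.107% of probe sets met as higher. The groups did not overlap for Psmb9, Tap1 and the brighter B2m probe set, 3 of 8 genes, where 4.62% of all genes were higher without overlap. Psmb9 read 121.2 on saline replicate 1, again below the leptin range, and was at 1.24 ± 0.45 (limma adjusted p = 0.715).

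Saline replicate 1 lowered the members unevenly. It read 109.4 for Psme1, 117.7 for the brighter Tapbp probe set, 692.4 for the brighter B2m probe set and 82.4 for Psmb10, which the mean of the other saline arrays exceeded 20.8-fold, 19.4-fold, 12.5-fold and 11.5-fold. The ratio was 3.65 for Psmb8, 3.00 for Psmb9, 2.26 for Tap2, 1.88 for the dimmer Tapbp probe set and 1.34 for Tap1. The 10th percentile of all values was 57 on saline replicate 1 and 16.3 to 19.2 on the other arrays. Readings of 82.4 to 117.7 lay near that higher floor, so the ratios of Psme1, Psmb10 and the brighter Tapbp probe set depend on it. Both probe sets of B2m measure 1 gene, yet the dimmer one read 5498.6 on this array, above the other saline arrays. The dim Tap1 probe sets were all highest there, with 823.9 and 603.7 for those that did not overlap without this array. The log2 differences with all arrays were 1.48 ± 1.12 for Psme1, 1.48 ± 1.10 for Tapbp, 1.64 ± 1.03 for B2m and 1.18 ± 0.88 for Psmb10, beside the 1.24 of Psmb9, 0.82 ± 0.52 for Psmb8, 0.39 ± 0.38 for Tap2 and 0.37 ± 0.25 for Tap1. The constitutive Psmb7 read 79.6 on this array and its difference became 1.74 ± 1.41, larger than that of Psmb8, Psmb9 or Psmb10.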

How the data were processed

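The deposited table holds the intensity of each probe set on a linear scale, with a column for each array. The authors had scaled each array to a common level, since the mean without the lowest and highest 2% of probe sets is 500.10 to 500.14 on each. The summarisation software is not given in the sources used here. Trizol extraction was followed by an amplifying small-sample labelling procedure, per the labels' protocols.

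Of 22690 probe sets, 64 controls were left out. The annotation gives 1 symbol to 20380, several to 691 and none to 1555, and only the first kind was named. The tests used log2(intensity + 22), with the 10th percentile of the whole table, 22, as pseudocount, so fold changes of dim probe sets come out too small. After the dimmest 30% by mean had been removed, 15838 probe sets were tested in each comparison with limma 3.58.1 in R 4.3.3 (lmFit, eBayes with trend, two-sided), p-values adjusted by Benjamini-Hochberg, threshold 0.05. Of 13 member probe sets, 10 were tested. A gene was represented by its brightest tested probe set. For the criterion stated by the series, whose test is not named, a pooled-variance test on the log2 values was used. Precision is limited by the number of arrays. The fit was tested on simulated data, with changes larger than that of any member without saline replicate 1. That test therefore does not cover differences of the members' size.

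Named were all members, Psmb5, Psmb6 and Psmb7, from each pathway list (not the cell type lists) the genes past the threshold or otherwise those 2 with the smallest p without saline replicate 1, and the 5 genes closest to the members' mean profile. H2-M3 and Cd1d1, and the cell type markers Sftpc, Ager, Epcam, Cdh1, Foxj1, Vwf, Cdh5, Kdr, Alas2 and Bpgm, were named besides, after their values were seen. The within-array ratio of catalytic subunits and the motif search were also added after the values were seen. Members and lists were chosen with earlier results of these data known.

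The labels do not say that replicate numbers pair animals. After each group's mean over all 6 arrays was subtracted, leptin and saline arrays of equal number correlated at 0.144, 0.108 and 0.103 across probe sets. Arrays of unequal number correlated at -0.147 to 0.0491. Saline replicate 1, which stood apart, enters these values, and subtracting group means ties them to one another. As all 3 values of equal number are over 0.1, a pairing by number is taken as possible, from the values only. Main fits do not use this pairing.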

Additional observations from a re-analysis of the deposited data

How the results depend on the processing

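A common median, quantile normalization, no filter, a filter at 50%, pseudocounts of 1 and 79.9, the replicate block, no variance trend, array weights (all 6 arrays only) and leaving out each array put no member past the limma threshold in either comparison. The adjusted p of Psmb9 ranged from 0.255 to 1.00 without saline replicate 1, and its log2 difference from 0.63 to 0.89. The counts over all probe sets were 0 with all 6 arrays and 7 without saline replicate 1. With all 6 arrays there were 8 with array weights, 32 by the criterion of the series and 0 to 7 when 1 array was left out, the 7 being without saline replicate 1. Without saline replicate 1 there were 0 with a common median, quantile normalization, no filter, a pseudocount of 1 or no trend, 13 at an adjusted threshold of 0.10, 78 by the criterion of the series and 0 to 3 when another array was left out. With the replicate block, the pairing by number, there were 0 as well, and it changed no call of a member. The cause of these shifts was not tested. Without saline replicate 1, leptin replicate 1 is alone in its block and adds nothing to the difference. The block fit then gives the same log2 differences as leaving out leptin replicate 1. Signs that turned in both of these refits are therefore the same estimates, counted in each. Signs turned in 7 of 280 refits of member probe sets: for Tap2 at -0.011 with array weights on all 6 arrays, and without saline replicate 1 at -0.057 with the block and also -0.057 without leptin replicate 1, with a range of -0.15 (without saline replicate 3) to 0.20 over the arrays left out. For the dimmer Tapbp probe set it was -0.038 with the block or without leptin replicate 1, with a range of -0.045 (without saline replicate 3) to 0.14. Among other named genes, Psmb7 ranged from -0.13 to 0.10, turning to 0.070 without leptin replicate 3 and 0.10 without saline replicate 2, and Sec61a1 from -0.50 to 0.0059, the latter without saline replicate 2. The members' median was 0.15 to 0.26 when another array was left out, and 0.18 with array weights on all 6 arrays.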
